A study of Rattus norvegicus with 24 samples.

Results

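Small RNA sequencing reads of 10 mature miRNAs were examined in rat brain 3 months after traumatic brain injury (TBI). They were listed as main arms of the miR-17-92 cluster and of its paralog clusters miR-106b-25 and miR-106a-363. The 10 were taken from 728 miRNAs in the count tables, and all 10 had a row in both tables. Each of 12 adult male Sprague-Dawley rats gave 1 library from the perilesional cortex and 1 from the ipsilateral thalamus, 24 libraries in all. The 6 TBI rats had a lateral fluid-percussion injury, in which a fluid pulse strikes the exposed dura, and were picked by the study because imaging showed lasting inflammation around the lesion. The 6 sham-operated rats had anaesthesia and skull surgery without the pulse and were sampled after the same 3 months. The list was selected on cluster membership, but it was proposed when measured cortical values were already known, with rno-miR-17-5p and rno-miR-20a-5p among the miRNAs called in that comparison. Differences between TBI and sham cortex are therefore given as a description. The paper retested both of these miRNAs by droplet digital PCR in the sequenced cortex samples, and neither difference reached significance there. It adds that PCR went in the sequencing direction for most of the cortical miRNAs that fell short. Its text does not name the exception.

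The clusters are transcribed as primary RNAs that hold several hairpins, and Drosha and Dicer cut each hairpin to a duplex from which usually 1 arm is kept. The mature miRNA pairs with target mRNAs mainly through its seed, bases 2 to 8, so members with the same seed can share targets even when they come from different clusters. The miR-17-92 cluster is known for promoting proliferation and survival, partly by repressing the pro-apoptotic factor Bcl2l11 and the cell cycle inhibitor Cdkn1a, and in brain it is used by neural progenitors and in axon growth.

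The mature sequences are shown because they define the seed families and how alike the members are. They are the RefSeq sequences of build GRCr8, 5′ to 3′, with the seed in capitals. All 10 members had an entry. The first 5 are the miR-17 seed family, followed by the miR-18 family with 1 member, the miR-19 family with 2 and the miR-92 family with 2. The last 2 lines are arms outside the 10 to which the results return.
rno-miR-17-5p: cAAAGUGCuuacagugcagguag
rno-miR-20a-5p: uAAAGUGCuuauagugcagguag
rno-miR-20b-5p: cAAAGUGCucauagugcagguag
rno-miR-93-5p: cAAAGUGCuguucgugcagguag
rno-miR-106b-5p: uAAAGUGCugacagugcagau
rno-miR-18a-5p: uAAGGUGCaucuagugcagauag
rno-miR-19a-3p: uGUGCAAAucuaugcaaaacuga
rno-miR-19b-3p: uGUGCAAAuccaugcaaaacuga
rno-miR-92a-3p: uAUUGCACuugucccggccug
rno-miR-25-3p: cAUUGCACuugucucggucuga
rno-miR-92b-3p: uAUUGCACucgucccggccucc
rno-miR-106b-3p: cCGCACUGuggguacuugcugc

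Counting positions from 1 at the 5′ end, rno-miR-17-5p and rno-miR-20a-5p differed at 2 of 23 positions, C1U and C12U. rno-miR-19a-3p and rno-miR-19b-3p differed at 1 position, U11C. rno-miR-92a-3p and rno-miR-25-3p differed at 3 of the 21 positions they share, U1C, C14U and C18U. Within the miR-17 family rno-miR-93-5p differed from rno-miR-17-5p at 4 positions, U10G, A11U, C12U and A13C. How reads that fit several of these sequences were assigned is not given in the sources used here, so the split of reads between such close relatives is uncertain.

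The miR-17-92 hairpins lie on the plus strand at chr15:98587861-98588622 of GRCr8, measured from the first to the last base of their mature arms, in the order Mir17, Mir18a, Mir19a, Mir20a, Mir19b1 and Mir92a1. The miR-106b-25 hairpins Mir106b, Mir93 and Mir25 lie on the minus strand at chr12:22156652-22157123, within the span of Mcm7, which encodes a subunit of the replicative helicase. The miR-106a-363 cluster has 5 hairpins on the minus strand at chrX:137342788-137343637. The mature rno-miR-17-5p, rno-miR-19b-3p and rno-miR-92a-3p are encoded both on chromosome 15 and on X with the same letters, so their reads cannot be assigned to 1 locus. The authors' counts were made on the older assembly RGSC3.4.

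miRNA reads per library ran from 744564 to 4069284 in cortex and from 523298 to 4139901 in thalamus. The shallowest 2 were the thalamus libraries of sham rat 55 and TBI rat 56, with under 600000 reads each. Levels are in CPM, reads per 1000000 after scaling the 24 libraries by the trimmed mean of M-values (TMM). The scaling factor itself moved with the groups in cortex, from 0.718 to 0.923 in sham and from 0.919 to 1.05 in TBI libraries. The 4 neuronal marker miRNAs summed to between 327726 and 608459 CPM in sham cortex and between 249369 and 332483 CPM in TBI cortex, with medians of 446796 and 305250 CPM, and to between 123215 and 325165 CPM in the thalamus libraries. The fall of the neuronal sum in TBI cortex was not shared by all 4 markers. The log2 differences between TBI and sham cortex were -0.75 for rno-miR-128-3p, -0.27 for rno-miR-9a-5p, -0.07 for rno-miR-138-5p and 0.15 for rno-miR-124-3p. Oligodendrocyte markers were lower in sham cortex than in sham thalamus in 3 of 3 cases, so the regions were distinct in their markers.

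The 10 members together took between 0.116% and 0.227% of the miRNA reads of a sham cortex library and between 0.252% and 0.313% of a TBI cortex library, before any scaling. In thalamus the shares ran from 0.190% to 0.350% in sham and from 0.312% to 0.596% in TBI libraries. With library size as the only scaling, the median log2 difference of all tested miRNAs was 0.25 in cortex and -0.03 in thalamus. The cortex shares thus hold a shift common to many miRNAs, and they come from values known when the list was proposed. Levels below are numbers of reads and are not corrected for how well a given sequence is ligated and amplified, so their order is an order of reads. In sham cortex rno-miR-92a-3p was the most read at 1058 ± 309 CPM (SD, n = 6), followed by rno-miR-25-3p at 317 ± 26.4 CPM and rno-miR-93-5p at 231 ± 28.3 CPM. rno-miR-20a-5p followed at 157 ± 20.9 CPM and rno-miR-17-5p at 75.8 ± 15.4 CPM. rno-miR-19b-3p was at 52.03 ± 10.5 CPM and rno-miR-106b-5p at 34.7 ± 7.67 CPM. The lowest 3 were rno-miR-19a-3p at 6.06 ± 2.71 CPM, rno-miR-18a-5p at 2.52 ± 1.05 CPM and rno-miR-20b-5p at 0.617 ± 0.648 CPM.

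The order of the 10 group means was the same in all 4 groups. In sham cortex the ranges of neighbours overlapped for rno-miR-93-5p and rno-miR-20a-5p, for rno-miR-17-5p and rno-miR-19b-3p, for rno-miR-19b-3p and rno-miR-106b-5p, and among the lowest 3. Members placed in 1 cluster were thus read at very different levels. Over all 24 libraries rno-miR-92a-3p had 68840 reads, rno-miR-20a-5p 14448, rno-miR-17-5p 6452, rno-miR-19b-3p 3543, rno-miR-19a-3p 464 and rno-miR-18a-5p 164, although all 6 have a hairpin in miR-17-92. The counts of rno-miR-92a-3p, rno-miR-17-5p and rno-miR-19b-3p also hold any reads from their X copies. rno-miR-20a-5p, rno-miR-19a-3p and rno-miR-18a-5p are encoded on chromosome 15 only.

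**Figure D1:**
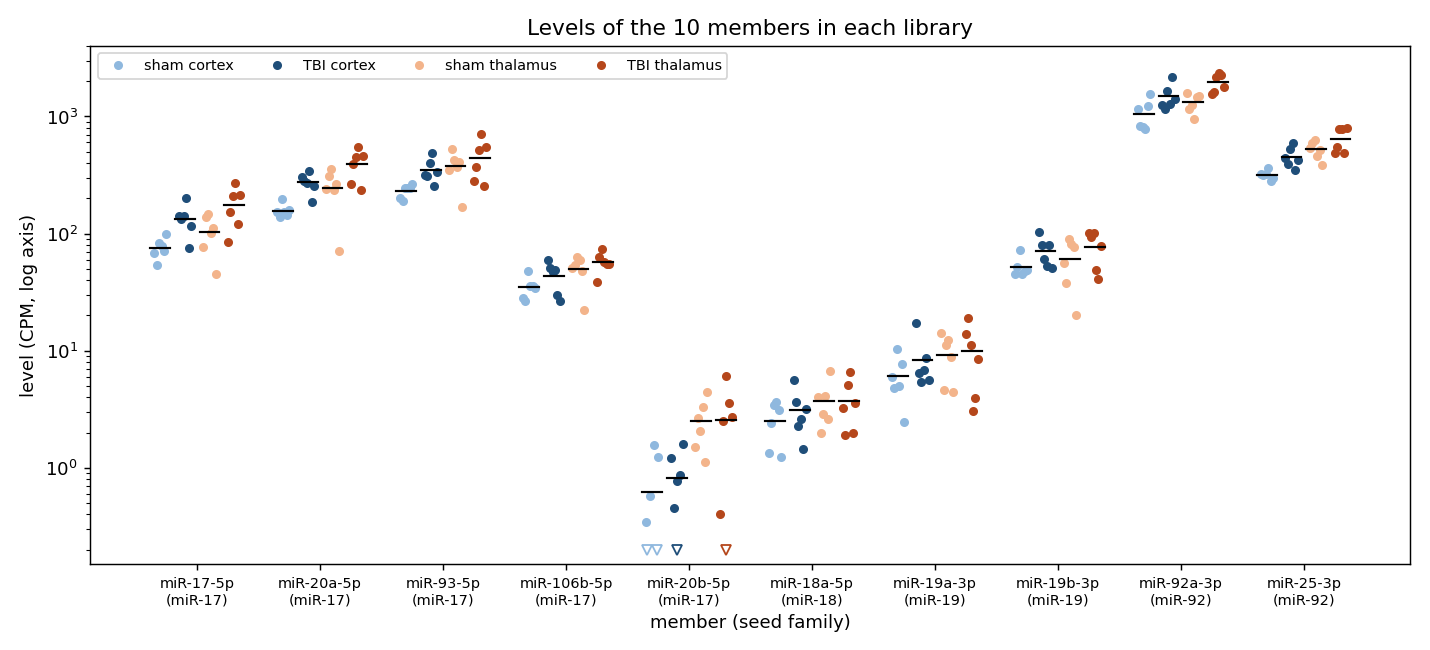
Level of each member in each of the 24 libraries, in CPM on a log axis, ordered by seed family and coloured by group, with the group mean as a black bar. Open triangles at the bottom mark libraries with 0 reads of rno-miR-20b-5p, and rno-miR-92a-3p lies above all other members in every group.

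rno-miR-20b-5p and rno-miR-18a-5p had too few reads to pass the filter on low counts in the 4 comparisons with all their libraries, so 8 of the 10 members were tested. rno-miR-20b-5p, the only member encoded on X alone, had 13 reads in the 12 cortex libraries and 77 in the 12 thalamus libraries. It was at 0 reads in 4 of 24 libraries, and its highest value was 25 reads in the thalamus of TBI rat 45. rno-miR-18a-5p, which differs from the miR-17 seed, had between 1 and 21 reads in a library. Neither supports a statement on injury at this depth.

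In the perilesional cortex the means of all 10 members were higher in TBI than in sham rats, by between 1.24-fold and 1.61-fold when summed by seed family. edgeR's quasi-likelihood test called 4 of the 8 tested members, all 4 higher, where 2.96% of the 371 miRNAs tested were called higher. Of all calls 11 were higher and 11 lower, and with scaling by library size alone 36 were higher and 3 lower. This count is part of what made the list known and nothing is read from it. The log2 fold changes of the 8 ran from 0.40 to 0.89 with a median of 0.55, against a median of 0.05 over all miRNAs tested. No member had all TBI libraries above all sham libraries, a pattern that 0.809% of the tested miRNAs showed. Tissue of this kind mixes cell types, and more cells of a type cannot be told apart from more RNA per cell.

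In the miR-17 family, rno-miR-17-5p ranged from 54.1 to 99.9 CPM in sham cortex with a median of 74.8 CPM, and from 74.7 to 201 CPM in TBI cortex with a median of 137 CPM. 5 of the 6 TBI libraries lay above every sham library, and TBI rat 56 was the one that did not. The log2 fold change was 0.89 ± 0.21 (SE), the largest among the 8. rno-miR-20a-5p ranged from 138 to 198 CPM in sham with a median of 153 CPM, and from 185 to 339 CPM in TBI with a median of 276 CPM. Again only TBI rat 56 overlapped the sham range, and the log2 fold change was 0.85 ± 0.15. It was called with any 1 of the 12 cortex libraries left out. This describes a call known when the list was proposed and is no separate support for it.

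rno-miR-93-5p, the most read member of this seed, had 191 to 263 CPM in sham cortex with a median of 243 CPM, and 254 to 490.0 CPM in TBI cortex with a median of 326 CPM. Its log2 fold change was 0.66 ± 0.17, and 5 of 6 TBI libraries lay above all sham libraries. rno-miR-106b-5p, from the same transcript, had 26.4 to 48.1 CPM in sham and 26.4 to 59.2 CPM in TBI cortex. The groups overlapped widely, with 3 of 6 TBI libraries above all shams, and the log2 difference of 0.40 ± 0.21 was not called.

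In the miR-19 family, rno-miR-19b-3p had 44.8 to 72.7 CPM in sham and 50.4 to 103 CPM in TBI cortex, a log2 difference of 0.49 ± 0.19 that was not called. rno-miR-19a-3p had 2 to 18 reads in sham and 6 to 43 reads in TBI cortex libraries, with a log2 difference of 0.52 ± 0.34 that was not called. Its highest library was TBI rat 22 at 17.3 CPM, the other 5 being at or under 8.62 CPM.

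In the miR-92 family, rno-miR-25-3p had 282 to 360.0 CPM in sham cortex with a median of 319 CPM, and 352 to 589.7 CPM in TBI cortex with a median of 431 CPM. 5 of 6 TBI libraries were above all shams, TBI rat 56 once more being the exception, and the log2 fold change was 0.57 ± 0.15. rno-miR-92a-3p had 775 to 1556 CPM in sham with a median of 987 CPM, and 1147 to 2167 CPM in TBI with a median of 1342 CPM. Only 2 TBI libraries exceeded every sham library, and the log2 difference of 0.53 ± 0.22 was not called. For this miRNA TBI rat 56 was the highest library of the group, the opposite of its place for rno-miR-17-5p, rno-miR-20a-5p, rno-miR-93-5p and rno-miR-25-3p.

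The cortical calls depended on single libraries and on the model. Without TBI rat 24, TBI rat 52 or sham rats 26, 32, 38 or 50, 1 at a time, 1 member was called, rno-miR-20a-5p, and without TBI rat 45 or sham rat 34 there were 2, rno-miR-17-5p and rno-miR-20a-5p. In a fit of all 24 libraries, and with scaling by 4 reference miRNAs, 0 of the 8 members were called, at unchanged direction.

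The ipsilateral thalamus lies away from the impact, and its libraries played no part in the cortical comparison, although they came from the same rats. The 8 tested members again had higher fitted levels in TBI than in sham rats, but edgeR's quasi-likelihood test called 0 of 8, and DESeq2 0 of 8. 3 of the 8 had an unadjusted p under 0.05. Of all 390 miRNAs tested 0.513% were called, namely rno-miR-146a-5p and rno-miR-155-5p, and 5.13% had an unadjusted p under 0.05. The median log2 difference was 0.33 over the 8 members and -0.03 over all miRNAs tested, and 47.2% of all tested miRNAs had a value above 0.

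rno-miR-92a-3p was the nearest to a call in thalamus. It had 955 to 1600.1 CPM in sham with a median of 1352 CPM, and 1567 to 2353 CPM in TBI with a median of 1973 CPM. TBI rat 22 alone overlapped the sham range, and 1.03% of the tested miRNAs had all TBI above all sham libraries. The log2 difference was 0.57 ± 0.18 with an adjusted p of 0.359 in edgeR, and between 0.0599 and 0.796 over its alternatives.

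rno-miR-17-5p had 44.8 to 147 CPM in sham thalamus with a median of 106.3 CPM, and 85.1 to 272 CPM in TBI thalamus with a median of 181 CPM. 4 of 6 TBI libraries lay above all shams, and the log2 difference was 0.75 ± 0.30 with an edgeR adjusted p of 0.589. rno-miR-20a-5p had 71.6 to 357 CPM in sham with a median of 251 CPM and 236 to 546 CPM in TBI with a median of 419.5 CPM. Here too 4 of 6 TBI libraries were above all shams, and the log2 difference was 0.67 ± 0.30 with an edgeR adjusted p of 0.781. The lowest sham value of both was the shallow library of rat 55, with 20 and 32 reads, and the lowest or next to lowest TBI values came from rats 22 and 56.

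The remaining members differed less in thalamus. rno-miR-25-3p had a log2 difference of 0.31 ± 0.18, rno-miR-93-5p of 0.25 ± 0.28 and rno-miR-106b-5p of 0.18 ± 0.23, so the 3 members of miR-106b-25 lay below rno-miR-17-5p, rno-miR-20a-5p and rno-miR-92a-3p. For the miR-19 family the values were 0.35 ± 0.33 for rno-miR-19b-3p and 0.12 ± 0.40 for rno-miR-19a-3p. None of these passed the test, and rno-miR-19a-3p turned to -0.08 without TBI rat 24.

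**Figure D2:**
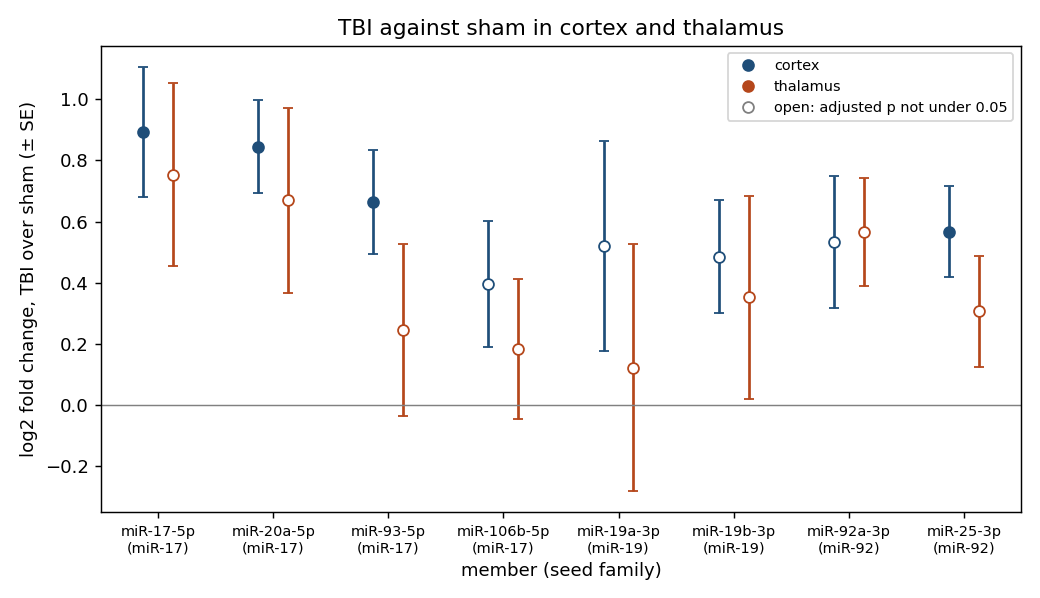
Log2 fold change of TBI over sham for the 8 tested members in cortex and thalamus, with the standard error as bars, ordered by seed family. Filled points passed an adjusted p of 0.05, which occurred in cortex only for 4 members used here as a description, and every point lies above 0.

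Whether injury acted differently in the regions was tested as the difference of the log2 fold changes, a contrast that contains the cortical comparison. The differences, cortex minus thalamus, ran from -0.08 ± 0.27 for rno-miR-92a-3p to 0.39 ± 0.56 for rno-miR-19a-3p. The value was 0.36 ± 0.34 for rno-miR-93-5p, 0.21 ± 0.23 for rno-miR-25-3p, 0.13 ± 0.36 for rno-miR-20a-5p and 0.09 ± 0.39 for rno-miR-17-5p. edgeR called 0 of the 8 members, and 0 of 8 had an unadjusted p under 0.05. Of all 407 miRNAs tested 0% were called, 17 had an unadjusted p under 0.05, and DESeq2 also called 0. With standard errors of 0.23 to 0.56 a difference of moderate size between the regions was not detectable at this number of rats, and sameness was not shown.

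Summed by seed family, the miR-17 family went from a mean of 499.7 ± 61.8 CPM in sham to 804 ± 176 CPM in TBI cortex (SD, n = 6 each), a ratio of 1.61. The miR-92 family went from 1375 ± 291 to 1936 ± 356 CPM, a ratio of 1.41, the miR-19 family from 58.1 ± 12.5 to 79.7 ± 24.1 CPM, a ratio of 1.37, and the miR-18 family from 2.52 ± 1.05 to 3.14 ± 1.45 CPM, a ratio of 1.24. In thalamus the ratio was 1.42 for the miR-92 family, 1.38 for the miR-17 family, 1.25 for the miR-19 family and 1.01 for the miR-18 family. By cluster, the summed miR-17-92 members had a ratio of 1.46 in cortex and 1.503 in thalamus, and the summed miR-106b-25 members 1.46 in cortex and 1.21 in thalamus. These sums weigh members by their reads and carry no test. The miR-17-92 sum includes every read of members that are also encoded on X, rno-miR-92a-3p among them. Its ratio therefore cannot be assigned to the miR-17-92 cluster alone. rno-miR-92a-3p alone made up a mean of 74.3% to 77.4% of the miR-17-92 sum in the 4 groups, and rno-miR-25-3p 53.6% to 57.0% of the miR-106b-25 sum.

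Shares within a seed family do not depend on the scaling between libraries, since both parts come from 1 library. rno-miR-93-5p made up 46.3 ± 2.41% of the miR-17 family in sham cortex and 43.8 ± 3.59% in TBI cortex. In thalamus its share was 48.9 ± 3.77% in sham and 41.1 ± 2.62% in TBI rats, with ranges of 42.6% to 54.0% and 37.8% to 44.6% that overlapped at the edge. The share of rno-miR-20a-5p went the other way there, 30.8 ± 4.37% in sham and 36.9 ± 2.28% in TBI thalamus. Its lowest share, 23.0%, was again in the shallow library of sham rat 55. A larger share of 1 member lowers those of the others, so these shares are not separate results. The fitted log2 differences in thalamus were above 0 for both, 0.25 for rno-miR-93-5p and 0.67 for rno-miR-20a-5p, neither called. rno-miR-17-5p made up 13.3 ± 1.45% in sham and 16.1 ± 1.86% in TBI thalamus, and rno-miR-106b-5p 6.56 ± 0.995% and 5.71 ± 1.65%. Of the pair in the miR-92 family, rno-miR-92a-3p held 75.9 ± 6.16% in sham cortex, 75.9 ± 5.75% in TBI cortex, 71.3 ± 5.52% in sham thalamus and 75.2 ± 4.30% in TBI thalamus. rno-miR-19b-3p held between 80.1% and 95.2% of its family in every library.

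**Figure D3:**
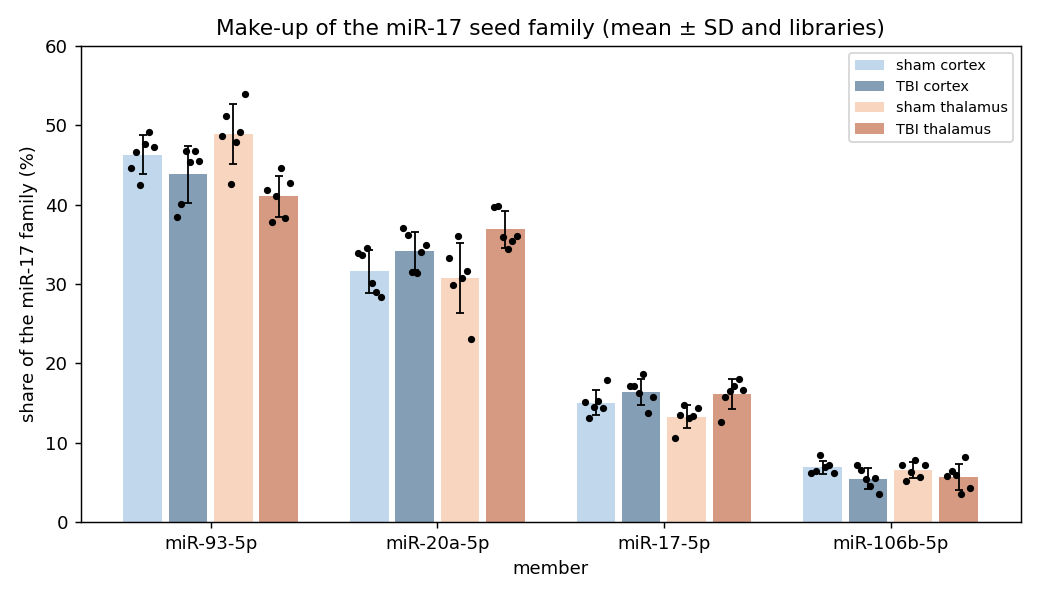
Share of the miR-17 seed family held by rno-miR-93-5p, rno-miR-20a-5p, rno-miR-17-5p and rno-miR-106b-5p, in percent, as bars of the group mean with the SD and a point for each library. In thalamus the mean share of rno-miR-93-5p was 48.9% in sham and 41.1% in TBI rats, and that of rno-miR-20a-5p 30.8% and 36.9%.

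Between regions of the sham rats, all 8 tested members had lower fitted levels in cortex than in thalamus. edgeR's quasi-likelihood test called 2 of the 8, rno-miR-25-3p and rno-miR-93-5p, both from miR-106b-25 and both lower in cortex. Of the 375 miRNAs tested 23.7% were called in either direction and 12.8% lower in cortex, so 2 of 8 is near the background. The 89 calls were 41 higher and 48 lower in cortex, and with scaling by library size alone 22 higher and 125 lower, 7 members among them. The median log2 difference was -0.67 over the 8 members and -0.08 over all tested. The sham cortex libraries are also the controls of the cortical injury comparison known when the list was proposed, so low values in them enter both.

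rno-miR-25-3p had 282 to 360.0 CPM in sham cortex and 385 to 633 CPM in sham thalamus, with no overlap, a pattern of all cortex below all thalamus libraries that 7.2% of the tested miRNAs showed. The log2 difference was -0.78 ± 0.15 with an edgeR adjusted p of 0.000944, and it stayed called with any 1 rat left out but not with scaling by 4 reference miRNAs, where 0 members were called. rno-miR-93-5p had 191 to 263 CPM in cortex and 168 to 527 CPM in thalamus, and its groups overlapped through the thalamus of rat 55 alone. Its log2 difference was -0.77 ± 0.22 with an edgeR adjusted p of 0.0179. With the rat as a block, since both regions came from the same animals, the difference was -0.70 with an adjusted p of 0.0573, leaving rno-miR-25-3p as the 1 member called.

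rno-miR-20a-5p was at -0.72 ± 0.26 with an edgeR adjusted p of 0.0569 and rno-miR-106b-5p at -0.61 ± 0.22 with 0.0548, neither of which passed. rno-miR-19a-3p was at -0.75 ± 0.33, rno-miR-17-5p at -0.53 ± 0.25, rno-miR-92a-3p at -0.37 ± 0.21 and rno-miR-19b-3p at -0.31 ± 0.27. Rat 55, whose thalamus library was the shallowest, decided several of these calls. Without it 5 of the 8 members were called, adding rno-miR-17-5p, rno-miR-20a-5p and rno-miR-106b-5p, while 32.9% of all tested miRNAs were. Without any other single sham rat 1 member was called, rno-miR-25-3p. When no filter on low counts was applied, rno-miR-20b-5p was called lower in cortex with a log2 difference of -2.26 and an edgeR adjusted p of 0.0135, resting on 4 reads in sham cortex and 30 in sham thalamus.

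**Figure D4:**
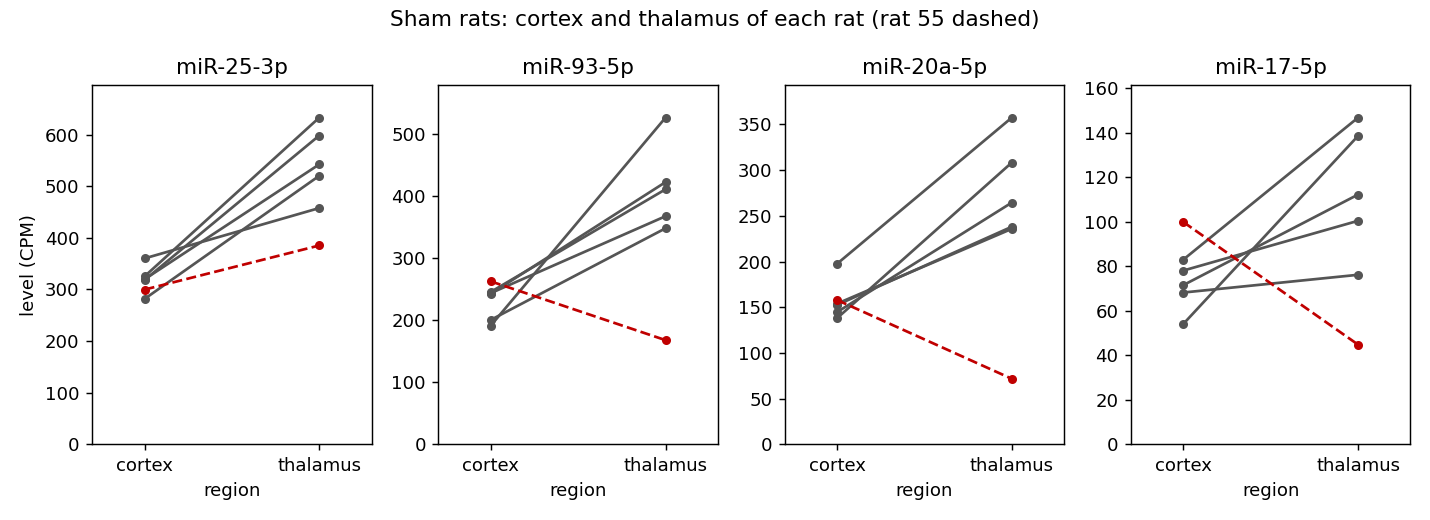
Levels of rno-miR-25-3p, rno-miR-93-5p, rno-miR-20a-5p and rno-miR-17-5p in CPM in the cortex and thalamus of each of the 6 sham rats, with 1 line per rat. The dashed line is rat 55, whose thalamus value is the lowest for all 4 miRNAs and falls below its cortex value for 3 of them.

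The opposite arms of the same hairpins and close relatives made up 19 further rows. In cortex 6 of them passed the filter and 0 were called by edgeR, 3 having an unadjusted p under 0.05. Of all miRNAs tested in cortex 21.6% had an unadjusted edgeR p under 0.05. DESeq2 also called 0 of these 6. Their log2 differences between TBI and sham cortex ran from 0.37 to 0.82. The opposite arms gave 0.82 ± 0.33 for rno-miR-25-5p, 0.56 ± 0.30 for rno-miR-93-3p and 0.45 ± 0.17 for rno-miR-106b-3p. In thalamus 7 passed the filter and 0 were called by edgeR or by DESeq2, with 0 at an unadjusted p under 0.05 and 6 of 7 above 0. Between sham cortex and sham thalamus edgeR called 1 of 6, rno-miR-32-5p of the miR-92 seed, lower in cortex with a log2 difference of -1.41 ± 0.42 and an adjusted p of 0.0227. DESeq2 called 2 of the 6, rno-miR-32-5p and rno-miR-106b-3p. Of all miRNAs tested between the regions edgeR called 23.7% and DESeq2 29.6%.

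For most hairpins the listed arm was the dominant one. rno-miR-93-5p had 18246 reads against 430 for rno-miR-93-3p, rno-miR-25-3p 25420 against 358 for rno-miR-25-5p, and rno-miR-20a-5p 14448 against 5 for rno-miR-20a-3p. The exception was Mir106b. rno-miR-106b-3p, whose sequence is printed above, had 4640 reads against 2450 for rno-miR-106b-5p, and it was ahead in all 24 libraries by between 1.36-fold and 4.50-fold. The 3p arm carries a seed shared with none of the 10 members.

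rno-miR-92b-3p, encoded on chromosome 2 at chr2:176931663-176931684 of GRCr8 and outside all 3 clusters, has the seed of the miR-92 family. It had 144572 reads in all, 2.10 times those of rno-miR-92a-3p, and exceeded it in 24 of 24 libraries. Of the reads with this seed, counting rno-miR-92a-3p, rno-miR-25-3p, rno-miR-92b-3p, rno-miR-363-3p and rno-miR-32-5p, it took 62.8 ± 5.38% in sham cortex, 64.7 ± 6.12% in TBI cortex, 59.9 ± 6.15% in sham thalamus and 61.1 ± 7.94% in TBI thalamus. Its log2 difference between TBI and sham was 0.67 ± 0.31 in cortex and 0.64 ± 0.30 in thalamus, neither of which was called. The library of TBI rat 56 was highest for rno-miR-92b-3p in both regions, at 6792 CPM in cortex and 8519 CPM in thalamus.

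Of the arms that differ between the chromosome 15 and X copies, those of chromosome 15 had more reads for miR-17 and miR-92a. rno-miR-17-1-3p had 185 reads and rno-miR-17-2-3p 25 over the 24 libraries, with the former ahead in 22. rno-miR-92a-1-5p had 45 reads while rno-miR-92a-2-5p was at 0 in every library. rno-miR-19b-1-5p had 3 reads and rno-miR-19b-2-5p 0, too few to order this pair. A count of 0 allows up to 3 reads in a library, which equals between 0.620 and 6.72 CPM by depth, and it covers counting error only. The X-linked rno-miR-363-3p had 130 reads, at most 24 in a library.

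Patterns over the 24 libraries were compared by centring each miRNA's log2 CPM on its own mean and taking the mean absolute difference between pairs, where 0 would be the same pattern. All miRNAs share the same libraries and scaling, so the values are a description. The nearest pair of members was rno-miR-17-5p and rno-miR-20a-5p at 0.18, which share both seed and cluster. Next came rno-miR-93-5p and rno-miR-25-3p at 0.20, of 1 cluster and different seeds, and rno-miR-20a-5p and rno-miR-25-3p at 0.22, which share neither. rno-miR-92a-3p was 0.48 from rno-miR-20a-5p and 0.50 from rno-miR-17-5p of its own cluster and 0.33 from rno-miR-25-3p of its own seed. Members with few reads, rno-miR-19a-3p, rno-miR-18a-5p and rno-miR-20b-5p, were far from most others.

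Among 340 miRNAs outside the list with a mean of at least 10 CPM, those most like rno-miR-17-5p were rno-miR-361-5p at 0.28, rno-miR-103-3p at 0.31 and rno-miR-322-5p at 0.32, against a median of 0.67. For rno-miR-20a-5p they were rno-miR-361-5p at 0.31, rno-miR-194-5p at 0.32 and rno-miR-16-5p at 0.32. For rno-miR-93-5p they were rno-miR-103-3p at 0.21, rno-miR-194-5p at 0.24 and rno-miR-16-5p at 0.24. For rno-miR-25-3p they were rno-miR-652-3p at 0.22, rno-miR-16-5p at 0.26 and rno-miR-187-3p at 0.26. For rno-miR-92a-3p they were rno-miR-106b-3p at 0.26, rno-miR-92b-3p at 0.27 and rno-miR-146a-5p at 0.28, and no member was nearer to it than these 3.

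**Figure D5:**
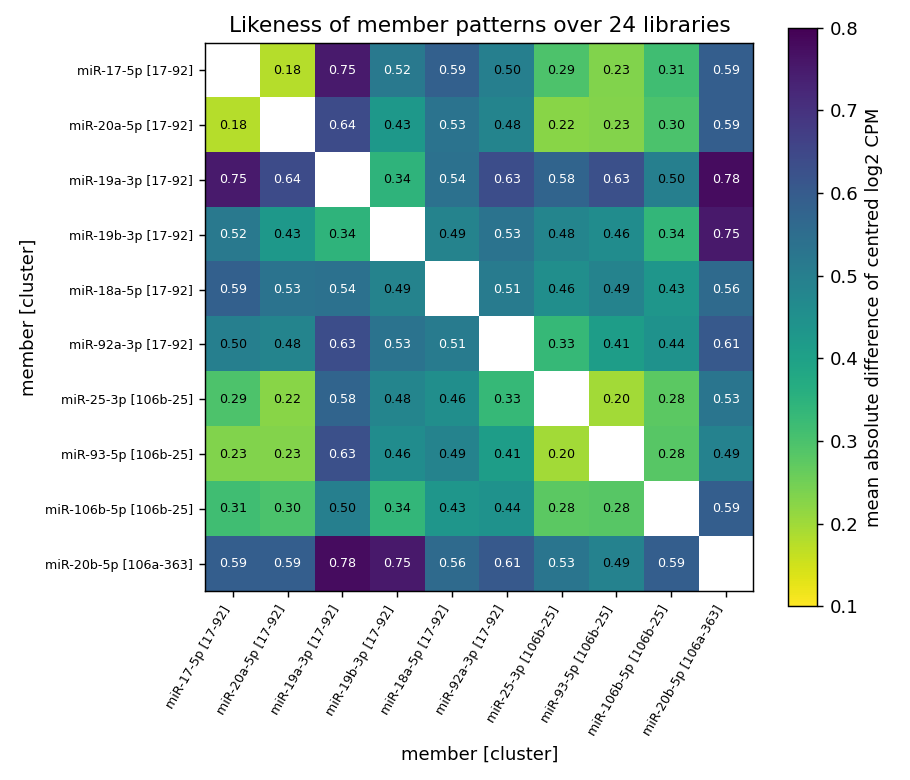
Mean absolute difference of centred log2 CPM between each pair of members over the 24 libraries, with the cluster of each member in brackets; lower values and lighter colours mean more alike patterns. The smallest value is 0.18, between rno-miR-17-5p and rno-miR-20a-5p.

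Markers of other cells moved beside the members in places. The 5 leukocyte and microglial markers summed to between 792 and 1286 CPM in sham and between 864 and 1879 CPM in TBI cortex, with 0 of 5 called by edgeR, 2 called by DESeq2 and 4 at an unadjusted p under 0.05. In thalamus they summed to between 741 and 1181 CPM in sham and between 1041 and 1989 CPM in TBI libraries, with 1 of 4 tested called by edgeR, rno-miR-155-5p, 2 called by DESeq2 and 3 at an unadjusted p under 0.05. Of all miRNAs tested edgeR called 5.93% in cortex and 0.513% in thalamus, and DESeq2 11.1% and 0.769%. An unadjusted edgeR p under 0.05 was found for 21.6% in cortex and 5.13% in thalamus. Of the 4 neuronal markers 1, rno-miR-128-3p, was called lower in TBI cortex. In thalamus edgeR and DESeq2 called 0 of the 4, 1 had an unadjusted p under 0.05, and their summed ranges were 168315 to 325165 CPM in sham and 123215 to 245425 CPM in TBI libraries. The 3 red blood cell markers found summed to between 22.0 and 105 CPM in cortex and between 8.63 and 54.7 CPM in thalamus, with 0 called by edgeR or DESeq2 and 0 at an unadjusted p under 0.05 in either. Of the 2 reactive glia markers rno-miR-146a-5p was called higher in TBI thalamus, with a log2 difference of 1.04 ± 0.20. In cortex neither was called by edgeR or DESeq2, and 1 had an unadjusted edgeR p under 0.05. This was rno-miR-146a-5p, with a log2 difference of 0.72 ± 0.25, while rno-miR-21-5p was at -0.01 ± 0.14. Of the 4 muscle markers rno-miR-1-3p was called lower in TBI cortex, with a log2 difference of -0.62 ± 0.15, and the summed muscle markers ran from 565 to 919.8 CPM in sham and from 476 to 709 CPM in TBI cortex. In thalamus the muscle markers summed to between 329 and 571 CPM in sham and between 128 and 418 CPM in TBI libraries, with 0 of 3 called by edgeR or DESeq2 and 1 at an unadjusted p under 0.05. Of the 2 endothelial and 3 oligodendrocyte markers 0 were called by edgeR or DESeq2 in either injury comparison, and 0 had an unadjusted p under 0.05. Only 1 of the 5 epithelial and choroid markers passed the filter in each comparison. It was uncalled, with an unadjusted p not under 0.05 and log2 differences of 0.79 in cortex and 0.70 in thalamus. The 5 summed to between 6.16 and 15.5 CPM in sham and between 12.5 and 135 CPM in TBI cortex. In thalamus the sums were 9.02 to 20.5 CPM in sham and 6.63 to 52.8 CPM in TBI libraries. No marker of these lists was at 0 throughout a group. Their part in the levels of the 10 members was not tested.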

How the data were processed

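The authors prepared small RNA libraries from total RNA of each dissected tissue, selected inserts of miRNA length, sequenced them, trimmed adapters, checked quality with FastQC, mapped the reads to rat assembly RGSC3.4 and annotated them with miRBase 20. The mapper and the treatment of reads that fit several miRNAs are not given in the sources used here. The deposited counts are whole, unnormalised reads per miRNA and library. The cortex table also lists 444 tRNA features, which entered 1 alternative only. Deposited tables of CPM were not used.

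The members, the other lists and the tests were chosen with earlier results of these data known. The text names the 10 members, all other rows of the same miRNA names, and for 5 members the 3 other miRNAs most alike in pattern. Genes named outside this rule were chosen after their values were seen. Groups came from the sample titles, and replicates were separate rats. Counts were fitted with edgeR 4.0.16 (R 4.3.3) by the robust quasi-likelihood test with TMM scaling and its default filter on low counts, per region for TBI against sham, over sham libraries for the regions, and over all 24 libraries for the difference of injury effects. P-values were adjusted over all miRNAs tested (Benjamini-Hochberg, 0.05). Log2 CPM used a prior count of 2. DESeq2 1.42.0, other scalings, no filter, a rat block and leaving out each rat were alternatives. So were the fits without the rats of the 2 shallowest thalamus libraries and without the robust option, chosen after seeing the data. The scripts were tested on simulated data.

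Both regions of a rat come from 1 animal, so the rat numbers pair the samples. The deviations of a rat's libraries from their group means correlated with a median of 0.38 (lowest -0.18, highest 0.64), above 0.1 in 8 of 12 rats. Depth ran from 523298 to 4139901 miRNA reads, and a floor of 3 reads stands for 0.620 to 6.72 CPM.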

Additional observations from a re-analysis of the deposited data

Results flagged for a closer look

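In the 60 sets of 6 libraries examined (each member and each summed seed family or cluster of more than 1 member, in each group), 5 had a library whose gap to the next, as a part of the whole range, exceeded the 95% critical value of Dixon's test. Chance gives about 1 in 20 sets, or 3 of 60, and the sets are not independent. In sham cortex, rat 34 was the highest for rno-miR-20a-5p at 198 CPM against 158 CPM for the next rat, a gap of 0.667 of the range. The same library was the highest for rno-miR-19b-3p, at 72.7 CPM against 51.7 CPM, a gap of 0.752, and for the summed miR-19 family, at 83.0 CPM against 56.5 CPM, a gap of 0.813. In TBI cortex, rat 22 stood apart for rno-miR-19a-3p at 17.3 CPM, from 43 reads, against 8.62 CPM for the next, a gap of 0.728. In sham thalamus, rat 55 was the lowest for rno-miR-106b-5p at 22.4 CPM, from 10 reads, against 47.8 CPM for the next, a gap of 0.632, and this was the shallowest library of all.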

How the results depend on the processing

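All 160 alternative values for the members in cortex were above 0, and 159 of 160 in thalamus, while all 110 for sham cortex against thalamus were below 0. These values come from refits of the same libraries and are not independent, so their shared sign is a description. Between regions the fit without rat 55 entered both as a left-out rat and as the fit without the shallowest library. Counts of calls moved more. In cortex, 39 miRNAs were called with library size alone, 41 with DESeq2, 5 in the fit of all 24 libraries (0 members) and 1 with 4 reference miRNAs (0 members). With tRNA features in the fit 1 member was called. Leaving out 1 rat gave 4 to 30 calls and 1 to 4 members. In thalamus, 5 miRNAs were called in the fit of all 24 libraries, 0 with the reference miRNAs, and 0 to 2 with 1 rat left out, with 0 without sham rat 26, 32 or 34 and 1 without sham rat 38. Between regions, library size alone gave 147 calls and 7 members, the reference miRNAs 0 members and DESeq2 4 members. Leaving out 1 rat gave 1 to 5 members, with 5 without sham rat 55, whose thalamus library was the shallowest. The replicate block, pairing the regions of a rat, gave 1 member there and changed no other count of calls by over 1.5 times. Library size alone moved the median of all miRNAs from 0.05 to 0.25 in cortex and from -0.08 to -0.45 between regions, and the members' median minus that of all miRNAs went from 0.50 to 0.51 in the first and from -0.58 to -0.61 in the second. The difference of injury effects for rno-miR-92a-3p turned to 0.12 with library size alone and ran from -0.14 to 0.042 with 1 rat left out. With 1 rat left out this difference ran from -0.094 to 0.34 for rno-miR-17-5p, from -0.028 to 0.31 for rno-miR-106b-5p and from -0.028 to 0.26 for rno-miR-19b-3p, and the thalamus value of rno-miR-19a-3p from -0.077 to 0.34. The cause of these shifts was not tested. Depth limited rno-miR-20b-5p, which passed the filter in no fit, and rno-miR-18a-5p, which passed it only for the difference of injury effects without sham rat 26 (-0.0052) or TBI rat 56 (0.21), uncalled in both.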
